A study of Homo sapiens with 10 samples.

Results

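The genes described here encode mitochondrial ribosomal proteins, chosen by their symbols, which begin with MRPL or MRPS followed by a number. In HEK293 cells 74 such genes were found among 24994 features measured in any library, each from 1 transcript. All 74 passed the filter on low counts and were tested among 13731 genes. By structure, 50 of the proteins sit in the large subunit, including those of MRPS18A and MRPS30 in spite of their names, and 24 sit in the small subunit.

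The study measured mRNA by sequencing in 10 libraries of HEK293, an established line from human embryonic kidney, to compare methods of crosslinking RNA to proteins. The untreated group had neither a modified nucleotide nor ultraviolet light. The 4SU group was fed 1 mM 4-thiouridine, a uridine analogue that cells build into new RNA, for 12 to 14 h before harvest and was not crosslinked. The 4SU and 365 nm group was fed in the same way and was then crosslinked at 365 nm. The 254 nm group received no 4SU and was crosslinked at 254 nm. These 4 groups had 2 libraries each, lettered A and B. A further 2 libraries, without 4SU or crosslinking, were from cells that received siRNA directed at GFP or at HuR, 1 library each; HuR is an RNA-binding protein encoded by ELAVL1. The 365 nm group is compared with the 4SU group and the 254 nm group with the untreated group, so 4SU feeding and wavelength were changed together between the crosslinking procedures. Nothing in the labels states that the A and B libraries were separate cultures. The p-values rest on the spread between the 2 libraries of a group, pooled over the 4 groups and drawn towards that of all genes. This spread may be technical.

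Mitochondria carry their own ribosome, which translates the few mRNAs encoded by the mitochondrial genome, all for membrane subunits of the respiratory chain and ATP synthase. Its RNAs are made inside the organelle, whereas its proteins are all encoded in the nucleus, translated in the cytosol and imported. Some of these proteins descend from bacterial ribosomal proteins and others have no bacterial counterpart. Promoters of such housekeeping genes often carry sites for ETS-family factors, NRF1 and YY1, which are regulators of nuclear genes for mitochondrial proteins.

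The RefSeq promoter table (GRCh38.p14) held 67 of the 74 members, each with 250 bases before and 50 after the annotated start. Searched on both strands, an ETS-type motif (CCGGAAG) was present in 27 of the 67 member promoters, or 40.3%, and in 10.7% of all 27305 promoters of that length. A YY1-type motif (AAGATGGCG) was present in 13 of them, or 19.4%, and in 1.85% of all promoters. An NRF1-type motif (CGCATGCG) was present in 3, or 4.48%, and in 2.19% of all. At least 1 of the motifs was found in 37 of the 67 members, or 55.2%, and in 13.7% of all promoters. The following 4 are shown because these members held a motif upstream, were higher under both crosslinking procedures and had the lowest p-values at 365 nm among such members. Each line gives the 150 bases before the start, read on the gene's strand, with the motif in capitals.
MRPL53: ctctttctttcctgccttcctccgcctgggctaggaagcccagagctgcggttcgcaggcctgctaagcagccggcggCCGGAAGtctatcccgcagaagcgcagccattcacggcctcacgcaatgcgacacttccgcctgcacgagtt
MRPL33: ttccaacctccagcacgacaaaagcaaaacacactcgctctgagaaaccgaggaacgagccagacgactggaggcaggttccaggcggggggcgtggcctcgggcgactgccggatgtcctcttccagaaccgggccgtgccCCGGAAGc
MRPL48: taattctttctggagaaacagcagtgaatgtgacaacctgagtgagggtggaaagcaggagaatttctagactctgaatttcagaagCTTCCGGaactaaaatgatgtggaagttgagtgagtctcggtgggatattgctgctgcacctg
MRPL52: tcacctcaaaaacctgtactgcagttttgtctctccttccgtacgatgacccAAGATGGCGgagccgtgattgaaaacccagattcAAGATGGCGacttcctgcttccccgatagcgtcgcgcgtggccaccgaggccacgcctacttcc
The MRPL53 stretch is chr2:74472681-74472830 on the minus strand, with the ETS-type motif beginning 72 bases before the start. The MRPL33 stretch is chr2:27771569-27771718 on the plus strand, with its ETS-type motif beginning 8 bases before the start. The MRPL48 stretch is chr11:73787724-73787873 on the plus strand, and its ETS-type motif lies on the other strand, so the capitals show the reverse complement, beginning 63 bases before the start. The MRPL52 stretch is chr14:22829737-22829886 on the plus strand, with 2 YY1-type motifs beginning 98 and 64 bases before the start. A motif match is a description of these letters and not evidence of a bound factor.

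Library totals lay between 2238569 and 3099769 tags in the 4 groups, and were 8688262 and 9016803 in the GFP and HuR siRNA libraries. At these depths of the 8 libraries, 3 tags correspond to 0.968 to 1.34 counts per 1000000 tags (CPM) of the unscaled library total. Levels in CPM below are scaled, and a tag then counts for more in the 365 nm libraries. In the 365 nm library A, 2 tags of MRPL50 gave 2.25 CPM. The marker levels that follow were scaled over all 10 libraries, and the lowest IRS4 value rests on 13 tags. The labelled cell line was checked against 4 markers listed for HEK293. IRS4 was present in every library at 15.6 to 494.9 CPM, lowest in the 365 nm libraries. The other listed markers, VIM, NEFM and PAX2, were low, between 0 and 18.0 CPM. VIM was at 0 in the untreated library B and PAX2 in the 365 nm library A, so the check rests on IRS4. Of the markers of other cell types, PTPRC had 0 or 1 tag and MYOD1 0 to 6 tags per library. HBB, ALB, CDH5 and CD3E were not found among the named features.

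The members took a small part of each library, and that part was similar in all groups but one. They held 0.760% and 0.662% of the tags in the untreated libraries A and B, and 0.882% and 0.638% in the 4SU libraries. In the 4SU and 365 nm libraries they held 0.675% and 0.833%. The 254 nm libraries stood apart with 1.46% and 1.72%, above every other library. The siRNA libraries held 0.636% (GFP) and 0.735% (HuR). Both crosslinked groups were also enriched in tags of short, abundant mRNAs. Cytosolic ribosomal protein genes went from 6.60% and 5.04% of tags in the untreated libraries to 18.2% and 24.0% after 254 nm, and from 10.1% and 5.89% in the 4SU libraries to 32.1% and 22.6% after 365 nm. The length of the transcript that the median tag came from fell with it, from 2666 and 3029 nt to 1534 and 1305 nt after 254 nm, and from 2373 and 2850 nt to 1147 and 1431 nt after 365 nm.

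**Figure D1:**
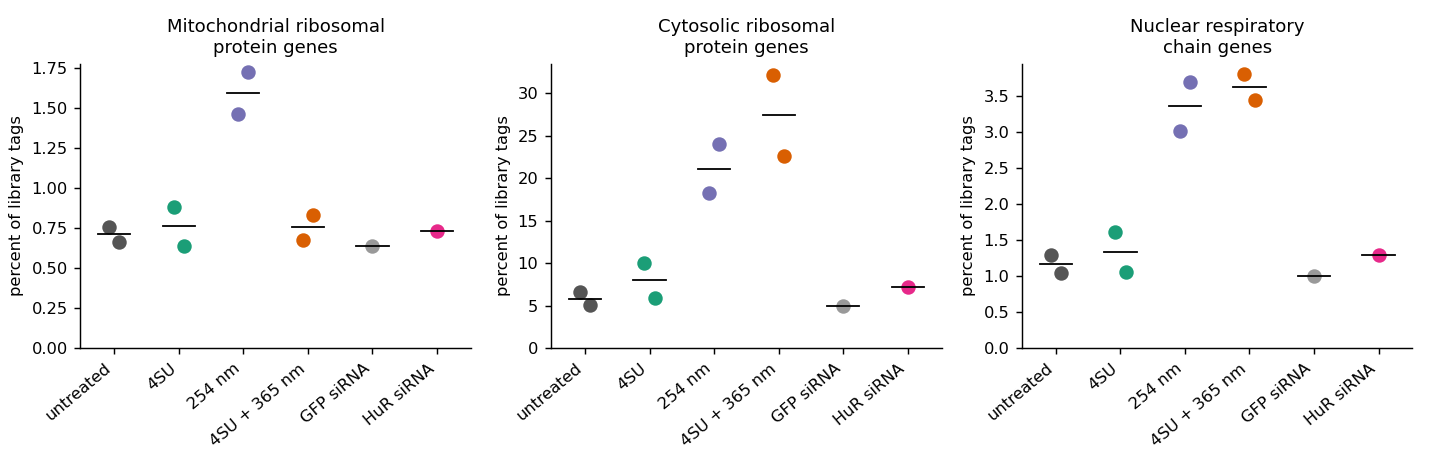
Percent of all tags in each library (vertical axes, from 0) that belonged to the 74 mitochondrial ribosomal protein genes (left), to cytosolic ribosomal protein genes (middle) and to nuclear respiratory chain genes (right), with 1 point per library and a line at the group mean. The members' share is highest in the 254 nm libraries, at 1.46% and 1.72%, while the other 2 classes are high in both crosslinked groups.

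The fitted model scaled the libraries with trimmed-mean (TMM) factors, which assume that most genes do not change. These factors were 0.372 and 0.50 in the 365 nm libraries, 1.55 and 1.76 in the 4SU libraries, 0.988 and 0.780 in the 254 nm libraries, and 1.63 and 1.58 in the untreated libraries. On that scale the summed level of the members was 4691 and 4223 normalised CPM in the untreated libraries, 5745 and 3673 in the 4SU libraries, 14870 and 22156 in the 254 nm libraries and 18198 and 16718 in the 365 nm libraries. Whether the members count as higher or lower at 365 nm therefore depends on the scale, and each result of that comparison is given relative to the other genes.

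Without treatment, the mRNAs of mitochondrial ribosomal proteins were well expressed and differed widely among themselves. Their median level per length was 42.3 normalised CPM per 1000 nt, and the range over members was 6.53 to 223.7, a 34.2-fold span. All 74 lay above the median of all tested genes, 6.48 CPM per 1000 nt. Large subunit members, with a median of 42.3, and small subunit members, with 43.0, had like levels per length. On the same scale the median was 466 for cytosolic ribosomal protein genes, 99.7 for respiratory chain genes and 16.7 for mitochondrial translation factors. The highest member was MRPL51, at 197 and 251 CPM per 1000 nt in the 2 libraries. It was followed by MRPL12, whose bacterial counterpart forms the flexible stalk of the ribosome, at 204 and 137. MRPS24, the counterpart of bacterial S3, had 155 and 100, and MRPL37 had 128 and 122. The lowest were MRPL19 at 5.75 and 7.31, MRPL35 at 8.27 and 11.7, MRPL22, a protein of the exit tunnel, at 8.49 and 11.7, and MRPL20 at 10.4 and 10.7. Only 3 of the 73 pairs of neighbours in this order did not overlap between libraries, so most neighbours do not differ beyond their spread.

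Feeding 4SU without crosslinking changed 1 member. Of the 74, MRPL34 rose and none fell, against 3.85% of all tested genes called higher and 3.69% called lower. The median difference of the members was 0.07 on the log2 scale, and that of all tested genes was 0.02. MRPL34, a small protein with a bacterial counterpart, stood at 21.9 and 12.0 normalised CPM in the untreated libraries and at 60.3 and 27.3 in the 4SU libraries. The groups did not overlap, but the 4SU library A was much higher than B. The log2 fold change was 1.35 (SE 0.37, edgeR adjusted p = 0.0167, n = 2 per group). Without the 4SU library A it was 0.66 with an edgeR adjusted p of 0.606, and without the untreated library B it was 0.97 with an edgeR adjusted p of 0.159. MRPL2, a protein at the peptidyl transferase centre, had 62.5 and 34.9 CPM untreated and 116.0 and 62.6 with 4SU, which touch at their edges and did not pass (log2 fold change 0.87, edgeR adjusted p = 0.142). At the other end, MRPL39 had 37.8 and 47.4 CPM untreated and 25.9 and 17.5 with 4SU. Some tags of MRPL45, which tethers the ribosome to the inner membrane, were split with other transcripts in 7 libraries, so its values are uncertain. It had 76.5 and 86.8 CPM untreated and 47.2 and 36.9 with 4SU. Neither pair of groups overlapped, yet neither passed (MRPL39 log2 fold change -0.98, edgeR adjusted p = 0.0689; MRPL45 -0.96, edgeR adjusted p = 0.062). Both passed with the length trend removed (edgeR adjusted p = 0.0161 and 0.0162) and without the untreated library A (0.0157 and 0.0256). With an unadjusted p under 0.05 there were 8 of 74 members and 21.7% of all tested genes, and DESeq2 called 0 members in either direction. Without the 4SU library B the members' median difference was 0.38 and that of all tested genes 0.02. Without the untreated library A these medians were 0.01 and 0.06.

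The libraries of 1 group did not always lie together for these genes. In the 4SU group 69 of the 74 members were higher in library A than in B, with a median log2 ratio of A to B of 0.62. In the 254 nm group 70 of 74 were higher in library B, with a median log2 ratio of A to B of -0.53. The untreated pair split 41 to 33 and the 365 nm pair 33 to 41. The median of all tested genes differed by at most 0.06 between the libraries of any group. The median difference of the members between 4SU and untreated libraries was -0.33 without the 4SU library A and 0.38 without library B, so its sign rests on 1 library.

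After 254 nm crosslinking without 4SU, most of the members rose together. Relative to untreated cells, 62 of the 74 members were higher and 0 were lower, where 25.2% of all tested genes were called higher and 28% lower. The members' median log2 fold change was 1.97, and that of all tested genes was -0.14. Among large subunit members 41 of 50 rose, with a median of 2.14, and among small subunit members 21 of 24 rose, with a median of 1.82. With each library left out in turn, 52 of the 62 calls were made every time. When libraries were scaled by their totals, 42 members were higher and 2 lower, where 10.1% of all tested genes were higher and 47.1% lower, and the median was 1.07 against -0.998 over all tested genes.

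The members that rose most after 254 nm light were found in both subunits. MRPL54, which has no bacterial counterpart, was at 53.0 and 27.9 CPM untreated and at 377.6 and 461.0 CPM after 254 nm. The crosslinked libraries lay far above the untreated ones, and the log2 fold change was 3.37 (SE 0.44, edgeR adjusted p = 2.35e-07). MRPS12, the counterpart of the decoding-centre protein S12, was at 91.4 and 39.7 CPM untreated and at 425.7 and 658.7 CPM after 254 nm, again without overlap. Its log2 fold change was 3.04 (SE 0.42, edgeR adjusted p = 3.43e-07). MRPL41 went from 61.3 and 23.2 to 332.1 and 519.6 CPM, a log2 fold change of 3.32. MRPL52 went from 41.4 and 20.2 to 220.8 and 410.2 CPM, a log2 fold change of 3.34, and MRPL23, whose bacterial counterpart lies at the exit of the peptide tunnel, from 62.9 and 34.9 to 344.0 and 610.4 CPM, a log2 fold change of 3.28. In all 3, the lower crosslinked library was above the higher untreated one. The stalk protein MRPL12 went from 214.9 and 144.3 to 941.9 and 1477 CPM, a log2 fold change of 2.75 (SE 0.41, edgeR adjusted p = 9.69e-07).

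The 12 members that did not pass at 254 nm had log2 fold changes between -0.62 and 0.74. MRPS27, an RNA-binding protein of the pentatricopeptide repeat family, had 91.0 and 121.9 CPM untreated and 71.8 and 66.4 after 254 nm, the lowest value among the members (log2 fold change -0.62, edgeR adjusted p = 0.0988). MRPS35 had 46.6 and 69.7 CPM untreated and 55.4 and 58.1 after 254 nm, within the untreated range. MRPL42 had 35.5 and 59.1 CPM untreated and 38.2 and 60.6 after 254 nm. MRPL44, which carries a ribonuclease III-like fold, had 24.3 and 31.9 CPM untreated and 31.4 and 26.9 after 254 nm. MRPL30, with tags split among transcripts in 8 libraries, had 43.6 and 53.0 CPM untreated and 40.9 and 61.5 after 254 nm. These last 3 overlapped between the groups.

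In 4SU-fed cells crosslinked at 365 nm, 51 of the 74 members were higher and 3 were lower than in 4SU-fed cells without crosslinking, whereas with libraries scaled by their totals 8 were higher and 31 lower. Among all tested genes 26.1% were called higher and 33.8% lower, and on library totals 7.42% higher and 72.6% lower. On library totals 8 of the 51 higher calls reversed to lower calls, those of MRPL9, MRPL17, MRPL19, MRPL34, MRPL45, MRPS5, MRPS23 and MRPS25. The members' median log2 fold change was 1.44 and that of all tested genes -0.50; on library totals these were -0.47 and -2.40. The members' median thus lay above that of all tested genes by 1.94 on the main scale and 1.93 on library totals. Of large subunit members 35 of 50 rose and 3 fell, with a median of 1.38, and of small subunit members 16 of 24 rose, with a median of 1.57. Of the 51 higher calls, 37 were made with every single library left out, and of the 3 lower calls 0 were. Without the 365 nm library A 1 member was called lower, and without the 4SU library A 0 were.

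The largest differences at 365 nm were those of MRPL23, MRPL41, MRPL53, MRPS24 and MRPL52, and all 5 were called higher under either scale. MRPL23 stood at 75.6 and 48.0 CPM in the 4SU libraries and at 916.3 and 670.5 CPM after 365 nm. The groups lay far apart, with a log2 fold change of 3.68 (SE 0.42, edgeR adjusted p = 2.82e-09), or 1.75 on library totals. MRPL41 had 69.1 and 26.6 CPM with 4SU and 714.2 and 481.0 CPM after 365 nm, a log2 fold change of 3.65. MRPL53, whose promoter is shown above, had 77.9 and 50.1 CPM with 4SU and 749.0 and 467.7 CPM after 365 nm, a log2 fold change of 3.25, and MRPS24 went from 181.1 and 74.1 to 1324 and 887.2 CPM, a log2 fold change of 3.12. MRPL52 went from 59.7 and 29.96 to 455.9 and 286.0 CPM, a log2 fold change of 3.05. For each of the 5 the crosslinked libraries did not overlap the others. The promoters shown above for MRPL33 and MRPL48 belong to members with log2 fold changes of 2.87 and 2.68.

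The 3 members that fell at 365 nm on the main scale were all large subunit proteins without a bacterial counterpart. Of all 74 members 50 are in the large subunit. The trait belongs to these 3 calls. With the length trend removed 9 members were lower, among them the small subunit member MRPS31 and MRPL10, which has a bacterial counterpart. On library totals 31 were lower. MRPL50 had 25.9 and 14.5 CPM with 4SU and 2.25 and 10.49 CPM after 365 nm, where the lower value rests on 2 tags. Its log2 fold change was -1.50 (SE 0.51, edgeR adjusted p = 0.0105), and it did not pass without the 365 nm library A (edgeR adjusted p = 0.187), without the 4SU library A (edgeR adjusted p = 0.123), or in DESeq2 (adjusted p = 0.0583). MRPL44 had 53.2 and 35.0 CPM with 4SU and 16.8 and 16.8 CPM after 365 nm, a log2 fold change of -1.38 (SE 0.40, edgeR adjusted p = 0.0029). Without the 4SU library A its edgeR adjusted p was 0.0651. MRPL49 had 108.1 and 58.4 CPM with 4SU and 52.8 and 41.3 CPM after 365 nm, a log2 fold change of -0.83 (SE 0.35, edgeR adjusted p = 0.039). MRPL49 held tags that the authors split with other transcripts in 5 libraries, and its value is uncertain. It did not pass without either 365 nm library, without the 4SU library A or without the 254 nm library A, the edgeR adjusted p then being 0.0715 to 0.552. MRPL10, the base of the ribosomal stalk, had 110.9 and 87.6 CPM with 4SU and 76.4 and 63.6 after 365 nm (log2 fold change -0.51, edgeR adjusted p = 0.182). MRPS30, a large subunit protein, had 29.6 and 22.4 CPM with 4SU and 18.0 and 21.0 after 365 nm (log2 fold change -0.40, edgeR adjusted p = 0.365).

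**Figure D2:**
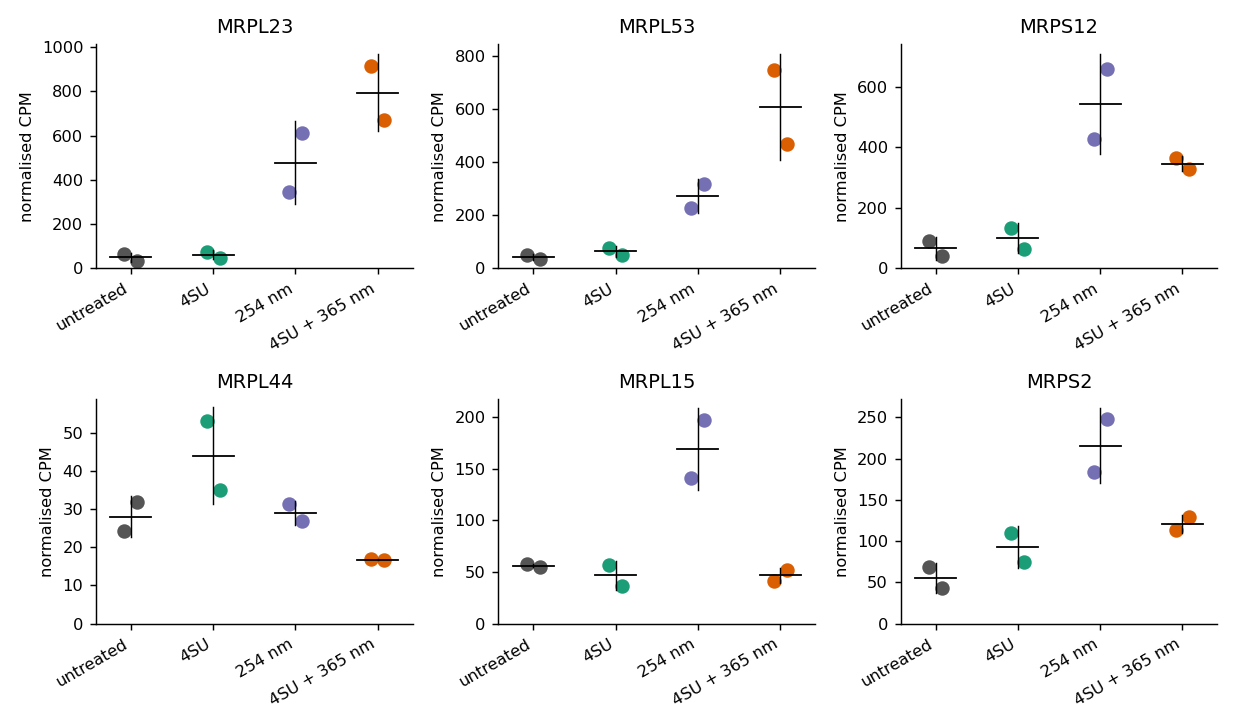
Normalised CPM (vertical axes, from 0, TMM-scaled) of 6 members in the 4 groups of 2 libraries, with 1 point per library, a horizontal line at the mean and a vertical line for ± 1 SD (n = 2). MRPL23 and MRPL53 are high in both crosslinked groups, MRPS12 peaks after 254 nm, MRPL44 is lowest after 365 nm at 16.8 and 16.8 CPM, and MRPL15 and MRPS2 are high in the 254 nm libraries.

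Shorter members had larger differences, as did shorter genes in general. The 24 members under 1000 nt had a median log2 fold change of 2.43 at 365 nm, with 22 higher and 0 lower, and of 2.57 at 254 nm, with 24 of 24 higher. The 36 members from 1000 to below 2000 nt had medians of 1.07 and 1.58, with 21 and 31 higher. The 14 members of 2000 nt or more had medians of 0.90 and 0.90, with 8 and 7 higher. Of all tested genes in these 3 classes, 64.3%, 41.9% and 15.8% were called higher at 365 nm, and 67.5%, 52.5% and 10.5% at 254 nm. Over all tested genes the medians of the 3 classes were 1.90, 0.59 and -0.99 at 365 nm, and 1.79, 1.04 and -0.68 at 254 nm. In every class at 365 nm the members' median lay above that of all tested genes of the class; the values at 365 nm use the main scale, and library totals shift them down with all other genes. Across the 74 members, Pearson's r of log2 fold change with log2 transcript length was -0.49 at 365 nm and -0.59 at 254 nm, a description over genes that share libraries. With the trend over length removed from the whole table, the members' median was 0.59 at 365 nm, with 33 higher and 9 lower, and 0.85 at 254 nm, with 39 higher and 0 lower. Of all tested genes, 26.2% were then higher and 20.9% lower at 365 nm, and 19.0% higher and 16.7% lower at 254 nm. The longest member, MRPL19 with 7827 nt, had 41.5 and 31.7 CPM with 4SU and 46.0 and 81.1 after 365 nm, with a log2 fold change of 0.82 on the main scale (edgeR adjusted p = 0.0384) that reversed to -1.05 on library totals (edgeR adjusted p = 0.0159).

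**Figure D3:**
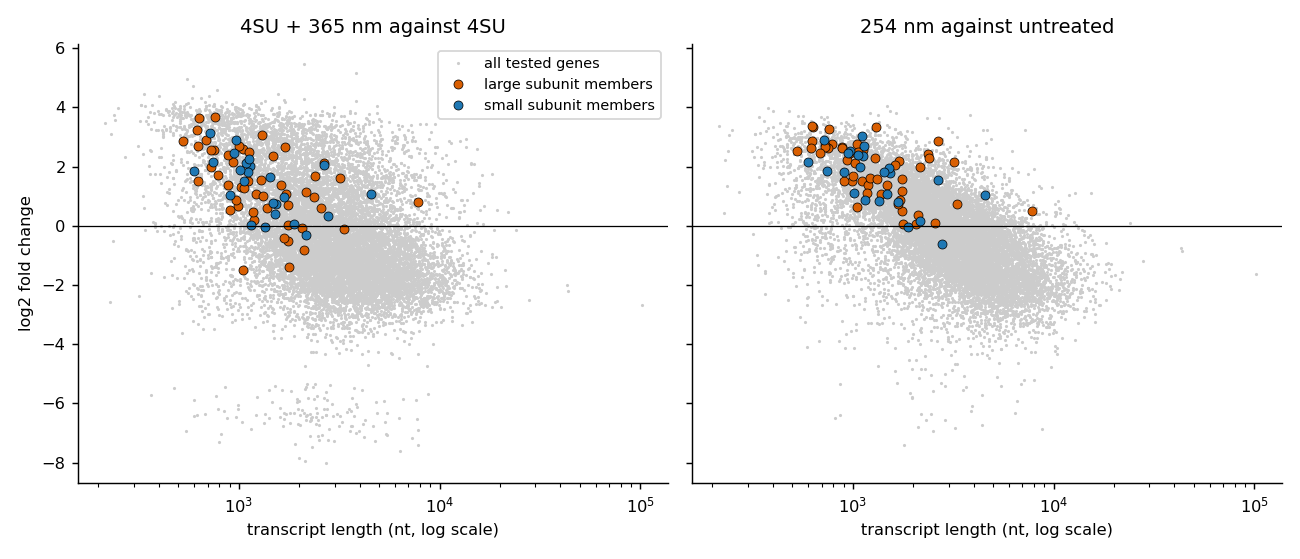
Log2 fold change on the main scale (vertical axis) against transcript length in nt (horizontal axis, log scale) at 365 nm (left) and 254 nm (right), for all 13731 tested genes in grey and the 74 members by subunit in colour. Short members sit highest in both panels, with medians of 2.43 and 2.57 under 1000 nt. Library totals would shift the points of both panels down, with medians over all tested genes of -2.40 at 365 nm and -0.998 at 254 nm.

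The crosslinking procedures gave a similar order of members. Their log2 fold changes, which share no control libraries, had a Pearson's r of 0.79 across the 74 genes. On the main scale 50 members were higher under both procedures, 1 (MRPL19) only at 365 nm, 12 only at 254 nm and 11 under neither; of all tested genes 16.1% were higher under both. Those 50 are 98.0% of the members higher at 365 nm and 80.6% of those higher at 254 nm, counts that hold for the main scale and not for library totals. The 11 were MRPL3, MRPL30, MRPL35, MRPL42, MRPL44, MRPL49, MRPL50, MRPS10, MRPS27, MRPS30 and MRPS35. Members with a bacterial counterpart rose in 33 of 45 cases at 365 nm and 40 of 45 at 254 nm on the main scale, where 26.1% and 25.2% of all tested genes were called higher, with medians of 1.63 and 2.16. Members without one rose in 18 of 29 and 22 of 29 cases, with medians of 1.15 and 1.77, and their median length was 1306 nt against 1127 nt. Members whose promoter held an ETS-type motif had medians of 1.81 and 2.36, and those without it 1.07 and 1.80; for the YY1-type motif the medians were 1.28 and 2.05 with it and 1.66 and 1.97 without it.

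The difference between the procedures was then tested directly, as the 365 nm difference minus the 254 nm difference. Of the 74 members 0 were called higher and 6 lower, against 9.99% and 7.09% of all tested genes, and the members' share of lower calls was close to that background. The median of the members was -0.48, and that of all tested genes was -0.15. On library totals 37 members were called lower and 0 higher, where 32.5% of all tested genes were called lower and 3.598% higher; the median was -1.50 for the members and -1.18 for all tested genes. The 6 were MRPL10, MRPL15, MRPL17, MRPL34, MRPL50 and MRPS2, and each lost its call when 1 of several libraries was left out.

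The 6 did not share 1 pattern. On the main scale MRPL10, MRPL15 and MRPS2 were called higher at 254 nm only. MRPL17 and MRPL34 were called higher under both procedures, and MRPL50 was lower at 365 nm and not called at 254 nm. MRPL15 is the counterpart of bacterial L15. It had 57.4 and 54.8 CPM untreated and 140.9 and 196.8 CPM after 254 nm, whereas with 4SU it had 56.6 and 36.7 CPM and after 365 nm 41.5 and 51.7 CPM. It was high in the 254 nm libraries only, with a log2 difference of -1.57 (SE 0.48, edgeR adjusted p = 0.0182). MRPS2, the counterpart of bacterial S2, had 68.3 and 42.9 CPM untreated, 183.6 and 247.6 after 254 nm, 110.3 and 74.8 with 4SU and 113.4 and 128.6 after 365 nm. Its log2 difference was -1.56 (SE 0.48, edgeR adjusted p = 0.0199). MRPL10 had 76.9 and 61.0 CPM untreated and 157.7 and 157.2 after 254 nm, and its log2 difference was -1.70 (SE 0.47, edgeR adjusted p = 0.0088). MRPL17 had 98.8 and 124.5 CPM after 365 nm and 250.8 and 363.3 CPM after 254 nm; its 365 nm call was higher on the main scale and lower on library totals. Its log2 difference was -1.43 (SE 0.49, edgeR adjusted p = 0.0375). MRPL34 had 77.5 and 81.8 CPM after 365 nm and 83.1 and 106.0 CPM after 254 nm. Its 4SU libraries had 60.3 and 27.3 CPM and its untreated libraries 21.9 and 12.0 CPM. MRPL34 and MRPL50 had log2 differences of -1.59 and -2.13 (edgeR adjusted p = 0.0258 and 0.0187). In DESeq2 MRPL34, MRPL50 and MRPL17 did not pass (adjusted p = 0.0968, 0.0524 and 0.0911), and with edgeR's relative log expression factors MRPL34 and MRPL17 did not (adjusted p = 0.0555 and 0.081). The largest differences the other way, MRPL48 at 1.01, MRPL37 at 0.99 and MRPS27 at 0.96, did not pass (edgeR adjusted p = 0.144, 0.171 and 0.144). Without the 4SU library A the members' median difference was -0.08 and that of all tested genes -0.13. Without the 254 nm library B these medians were -0.028 and -0.12. Without the 365 nm library A they were -0.35 and -0.19, and without the 365 nm library B -0.46 and -0.20. Without the 4SU library B they were -0.70 and -0.14, and without the untreated library A -0.47 and -0.19.

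**Figure D4:**
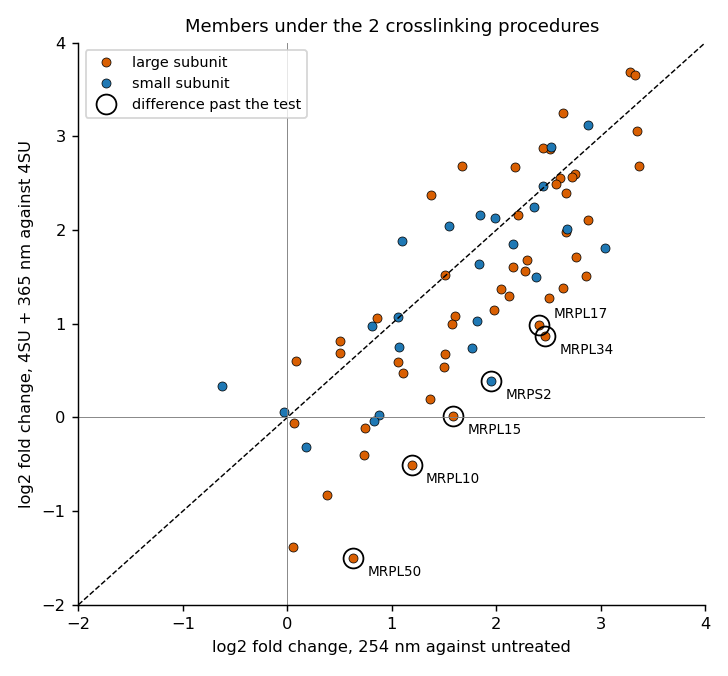
Log2 fold change of the 74 members on the main scale at 365 nm (vertical axis) against 254 nm (horizontal axis), coloured by subunit, with the line of equal values dashed and the 6 members whose difference passed the test ringed. Of the 74 points 50 (67.6%) lie below the dashed line, as do 54.1% of all tested genes, and the 6 ringed ones do so by 1.43 to 2.13; library totals lower the values on both axes, with medians of -0.47 at 365 nm and 1.07 at 254 nm.

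Other genes of the same machinery were read from related lists, without a test of the lists. Cytosolic ribosomal protein genes had larger values than the members, with medians of 3.72 at 365 nm and 2.75 at 254 nm and 75 of 75 higher in both, on the main scale. Nuclear respiratory chain genes had medians of 3.27 and 2.42, with 66 and 59 of 67 higher. Of 6 genes listed for the mitochondrial ribosome under other symbols, 4 were measured. CHCHD1 rose at 365 nm by 2.60 and at 254 nm by 2.45, and KGD4 by 2.38 and 1.79. DAP3, a GTP-binding small subunit protein, rose by 1.68 at 365 nm. KGD4 is known as a subunit of a dehydrogenase complex of the citric acid cycle, and its place in this list is uncertain. PTCD3, another pentatricopeptide repeat protein of the small subunit with a transcript of 6752 nt, was at -0.68 at 254 nm (edgeR adjusted p = 0.0775). Of 21 factors that assemble the ribosome or modify its RNA, 4 rose and 4 fell at 365 nm (median -0.58), and 11 rose and 0 fell at 254 nm (median 0.89); the GTPase MTG1 rose by 2.27 at 365 nm and MALSU1 by 2.29 at 254 nm. Of the 13 mitochondrial translation factors 5 rose and 3 fell in each comparison, with TUFM, the elongation factor Tu, at 3.20 and 1.70. Of the 17 mitochondrial aminoacyl-tRNA synthetases 5 rose and 4 fell at 365 nm and 5 rose and 3 fell at 254 nm. CARS2 was at 3.14 and 1.34. All list counts use the main scale. On it 26.1% of all tested genes were higher and 33.8% lower at 365 nm, and 25.2% higher and 28% lower at 254 nm. The synthetases' shares, 29.4% and 23.5% at 365 nm and 29.4% and 17.6% at 254 nm, lay near or below these.

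The HuR siRNA pair has 1 library per siRNA and no test, and its intervals cover counting error only. The targeted gene ELAVL1 had 150.8 normalised CPM with the GFP siRNA and 51.6 with the HuR siRNA, scaled over all 10 libraries. Its log2 ratio was -1.54 (95% exact counting interval -1.67 to -1.41). This ratio and the members' ratios and CPM below were scaled over the 2 siRNA libraries alone, so the CPM of ELAVL1 and of the members are not on 1 scale. Past 1.5-fold, 19 of the 74 members were higher and 2 were lower with the HuR siRNA, where 17.5% and 20% of the 17798 genes with at least 10 tags were. The members' median log2 ratio was 0.23 and that of all such genes was -0.0024. Counting intervals lay above 0 for 45 members, below 0 for 12, and held 0 for 17, where of all such genes 26.9% lay above, 28.7% below and 44.4% held 0. Libraries scaled by their totals gave 12 higher and 3 lower members, with a median of 0.14.

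MRPS12 had the highest ratio of the members, with 386 tags (43.0 CPM) in the GFP library and 899 tags (103.0 CPM) in the HuR library, a log2 ratio of 1.26 (interval 1.09 to 1.44). MRPL41 had 40.9 and 91.5 CPM, a ratio of 1.16 (0.98 to 1.34). MRPL12 had 182.9 and 377.9 CPM, a ratio of 1.05 (0.96 to 1.13), and MRPL55 had 61.7 and 115.7 CPM, a ratio of 0.90 (0.76 to 1.06). These 4 were among the members higher under both crosslinking procedures on the main scale, as were 50 of all 74 members (67.6%). A link between the siRNA ratios and crosslinking was not tested. The lowest ratios were those of MRPS31 with 58.1 and 35.9 CPM (-0.69, interval -0.90 to -0.49), MRPL39 with 79.6 and 51.9 CPM (-0.61, -0.79 to -0.44), MRPL3, a protein of the large subunit core, with 244.6 and 170.8 CPM (-0.52, -0.61 to -0.42), and MRPS27 with 161.8 and 116.0 CPM (-0.48, -0.60 to -0.36). MRPS31 and MRPS27 held split tags in 4 and 5 libraries. By length, the members' median ratios were 0.51 under 1000 nt, 0.21 from 1000 to below 2000 nt and 0.05 at 2000 nt or more, where all tested genes had 0.38, 0.24 and -0.16. The median ratio was 0.66 for cytosolic ribosomal protein genes, 0.50 for respiratory chain genes and -0.42 for mitochondrial translation factors. The part of library composition in these ratios was not tested.

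**Figure D5:**
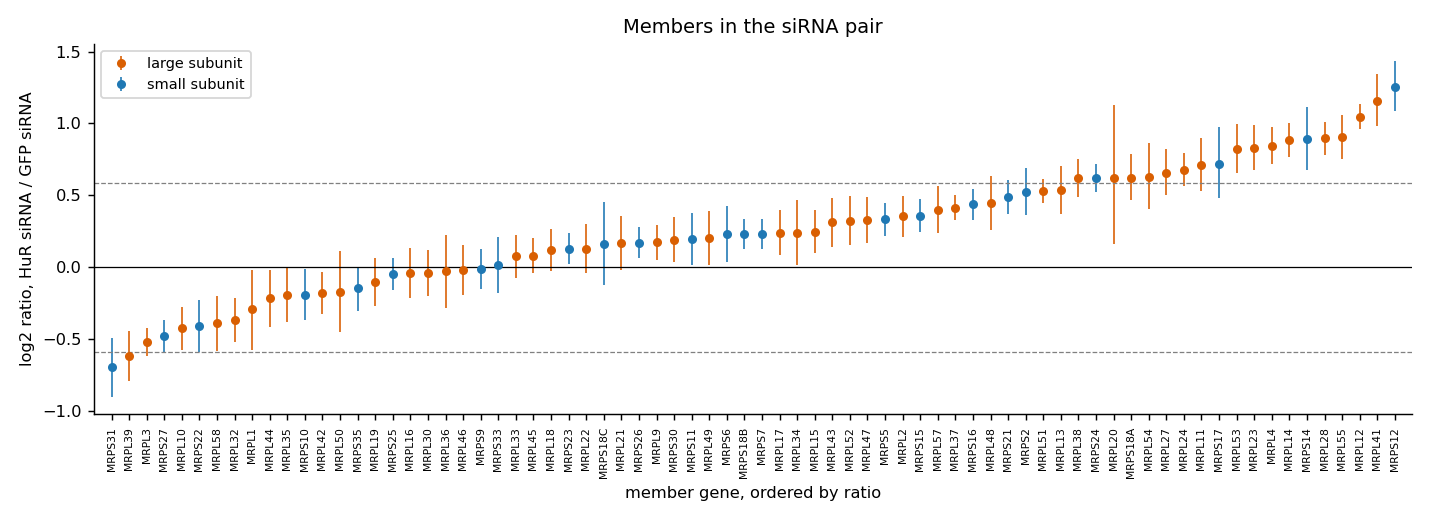
Log2 ratio of the HuR to the GFP siRNA library (vertical axis) for each of the 74 members (horizontal axis, ordered by ratio and coloured by subunit), with bars for the 95% exact counting interval and dashed lines at 1.5-fold. The ratios run from -0.69 for MRPS31 to 1.26 for MRPS12, and 45 of the intervals lie above 0.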

How the data were processed

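The deposited tables list, per the file headers, the expected counts of tags per transcript, the transcript length and an expression signal, which the authors made as tags per 100 nt per 1000000 tags; it served only to check the counts. Some deposited counts are fractional, since a tag with several matches was divided among them; this touched 19 of the 74 members. Neither the aligner nor the build and annotation behind the counts is given in the sources used here. Accessions were named from a RefSeq table (GRCh38.p14; 15886 of 25005 transcripts) or GENCODE (134); 8985 stayed unnamed but were tested. Counts were rounded to whole tags.

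The 8 libraries of the 4 groups of 2 entered 1 quasi-likelihood model of edgeR 4.0.16 (R 4.3.3) with TMM factors, filterByExpr, 1 mean per group and two-sided tests, adjusted by Benjamini-Hochberg over all 13731 tested genes and called at 0.05. The residual degrees of freedom were 4, the prior degrees of freedom shared over genes averaged 40.0, and the common biological coefficient of variation was 0.244. The script was tested on simulated counts. The siRNA ratios had a prior count of 2 and TMM scaling. SE was taken as the log2 fold change over the square root of F.

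Alternatives were other scaling factors, DESeq2 1.42.0, other filters, a replicate block, removal of the length trend and the compared groups alone. Others left out members with split tags or each library in turn. The length trend was a lowess curve per library, entered in edgeR as offsets. The members and lists were chosen with earlier results of these data known. Named members are the 5 highest and 5 lowest per comparison (3 and 3 for the difference between procedures), calls against the majority direction, the 4 highest and 4 lowest untreated levels and siRNA ratios, and the printed promoters. MRPL19, the 11 members higher under neither procedure and MRPL9, MRPL33, MRPS5, MRPS23 and MRPS25 were named after their values were seen. The related lists hold up to 3 named genes each, those of lowest p.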

Additional observations from a re-analysis of the deposited data

Results flagged for a closer look

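For 6 members the 365 nm and 254 nm differences differed by an interaction test in edgeR over all tested genes (adjusted p under 0.05), each more positive at 254 nm. These 6 of 74 stand beside 7.09% of all tested genes called lower and 9.99% called higher, a share close to that background. The log2 values of the 365 nm difference minus the 254 nm difference were -1.70 for MRPL10 (edgeR adjusted p = 0.0088), -1.57 for MRPL15 (0.0182), -1.43 for MRPL17 (0.0375), -1.59 for MRPL34 (0.0258), -2.13 for MRPL50 (0.0187) and -1.56 for MRPS2 (0.0199), with 2 libraries in each of the 4 groups. With the trend over length removed, 5 of the 6 still passed and MRPL17 did not (-1.001, edgeR adjusted p = 0.105). With 1 library left out at a time, 0 of the 6 passed every time. MRPL10 did not pass without the 365 nm library B (edgeR adjusted p = 0.0843) or without the 4SU library A (0.0616). MRPL50 had 2 tags in the 365 nm library A, and without that library its difference was -1.53 (edgeR adjusted p = 0.16). The 4SU library A and the 254 nm library B, which held more of nearly all members than their partners, moved with these values, and their part in them was not tested.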

How the results depend on the processing

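Scaling set the sign at 365 nm. On library totals 8 members were higher and 31 lower there, with a median of -0.47; at 254 nm the median was 1.07, with 2 lower, and in the difference between procedures 37 were lower, with a median of -1.50. Upper-quartile factors gave 1 lower member at 254 nm, where 4344 of 13731 tested genes were lower. DESeq2 called 0 members higher after 4SU, where 257 of 13731 tested genes were. It called 1 member lower at 365 nm, where 2822 genes were. In the difference it called 1 member higher and 3 lower, where 1583 and 444 genes were. With the length trend removed, 4 members (5.4%) were lower after 4SU, as were 5.3% of all tested genes. At 365 nm 33 (44.6%) were higher and 9 (12.2%) lower, against 26.2% and 20.9%, with a median of 0.59. At 254 nm 39 (52.7%) were higher, against 19.0%, with a median of 0.85. In the difference 2 (2.7%) were higher and 7 (9.5%) lower, against 13.2% and 6.2%. The groups alone gave 0 higher after 4SU, where 406 of 13647 tested genes were. Members without split tags gave 1 lower of 55 at 365 nm. The cause of these changes was not tested, apart from the smaller number of members in the last.

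The letters A and B pair nothing in the labels, and the correlations of same-lettered deviations ranged from -0.08 to 0.35 over 6 pairs of groups. With a replicate block 2 members, MRPL39 and MRPL45, were lower after 4SU (edgeR adjusted p = 0.0347 and 0.0332), where 831 of 13731 tested genes were. In the difference between procedures 12 of the 74 members were then lower, where 1353 tested genes were.

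With 1 library left out at a time, 0 to 5 members were higher and 0 to 3 lower after 4SU, with a median of -0.33 to 0.38. At 365 nm 38 to 55 were higher and 0 to 3 lower, with a median of 1.12 to 1.83. At 254 nm 52 to 63 were higher and 0 to 1 lower, with a median of 1.59 to 2.21. In the difference 0 to 1 were higher and 0 to 12 lower, with a median of -0.70 to -0.028. The lone library left in a group was assumed to vary like the other groups. Of the alternative values of single named members, each in the comparison it was named for, 584 kept their side of the threshold, 46 lost a call and 24 gained one. At 365 nm 8 members called higher on the main scale were called lower on library totals.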
